A study of Mus musculus with 16 samples.

Results

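The genes Cdkn2a, Cdkn2b, Trp53, Mdm2, Cdkn1a, Rb1 and Tert control senescence and escape from it, and this account follows their CpG methylation and read coverage in immortalised mouse embryonic fibroblasts (MEFs). CpGs were taken from 2 kb before the start to the end of each gene (GENCODE M21 on mm10), without reference to their levels. This gave 478 of the 1203687 CpGs kept by the study, all covered by 10 or more reads in every one of the 16 libraries. The study had left out CpGs on chromosomes 12, 18, 19, X and Y. Shares of all CpGs, windows or gene regions in the methylation comparisons below therefore leave out these chromosomes too. Cdkn2a contributed 100 CpGs, Cdkn2b 55, Trp53 40, Mdm2 60, Cdkn1a 57, Rb1 98 and Tert 68. Target capture bisulfite sequencing (tcBS-seq) enriches chosen regions with RNA probes and reads a C as methylated where bisulfite has not converted it. The level of a CpG is the percentage of its reads called methylated, and the median depth of the 478 CpGs was 30 reads.

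The cells came from a pair of sibling C57BL/6J embryos collected at E13.5, and each culture was taken through crisis by serial passaging. The embryos differed in sex, as the study's methods state. The resulting parental lines, MEF-1 and MEF-2, are mixtures of cells and were each sequenced once, so their values have no replicates. From each, 7 single immortalised cells were sorted and grown into clonal lines, and family here means a parental line and the clones drawn from it. Values with ± are means and SD over the 7 clonal lines of a family. No library of cells before crisis was analysed here, and embryo, sex and separate passage history cannot be told apart in any difference between the families.

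Primary mouse fibroblasts that are passaged in culture stop dividing when stress signals raise the products of the Ink4a/Arf locus. From this locus Cdkn2a gives p16, an inhibitor of the kinases CDK4 and CDK6, and p19, which blocks MDM2 and so stabilises p53. The neighbouring gene Cdkn2b encodes p15, a relative of p16. p53 switches on Cdkn1a (the CDK inhibitor p21) and Mdm2 (the ubiquitin ligase that removes p53), whereas active RB1 holds back cell cycle genes. Lines that pass through crisis have commonly lost p53 or p19 function, by mutation or deletion or, for the Ink4a/Arf locus, sometimes by promoter methylation. Tert encodes the catalytic subunit of telomerase, which mouse cells often keep active.

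The promoters of these genes were mostly unmethylated in every immortalised library. A promoter window runs from 1000 bp before to 500 bp after a transcript start, and 8 of the 10 windows of the 7 genes held at least 3 measured CpGs. The windows of both Cdkn2a starts, Cdkn2b, Trp53, Mdm2 and Rb1 stayed between 0.278% (Mdm2 in MEF-2 line 2) and 16.03% (Trp53 in MEF-1 line 6) in all 14 clonal lines. The Tert window was intermediate and the upstream start of Cdkn1a was highly methylated in both families. The 7 MEF-1 and 7 MEF-2 clonal lines were compared with a quasi-binomial model of the read counts, and 4 of the 8 windows passed (adjusted p under 0.05), beside 42.9% of all 15655 windows. At this background the count says nothing particular about these genes. Single CpGs passed at 83 of 478 positions, 36 higher in MEF-1 and 47 higher in MEF-2, beside 20.2% of all CpGs. The levels of the families did not overlap at 41 of the 478 CpGs (8.58%), beside 9.41% of all CpGs. Of all clonal values at the 478 CpGs, 61.5% lay under 10% and 21.2% at 90% or above, compared with 43.6% and 30.0% over all CpGs.

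**Figure D1:**
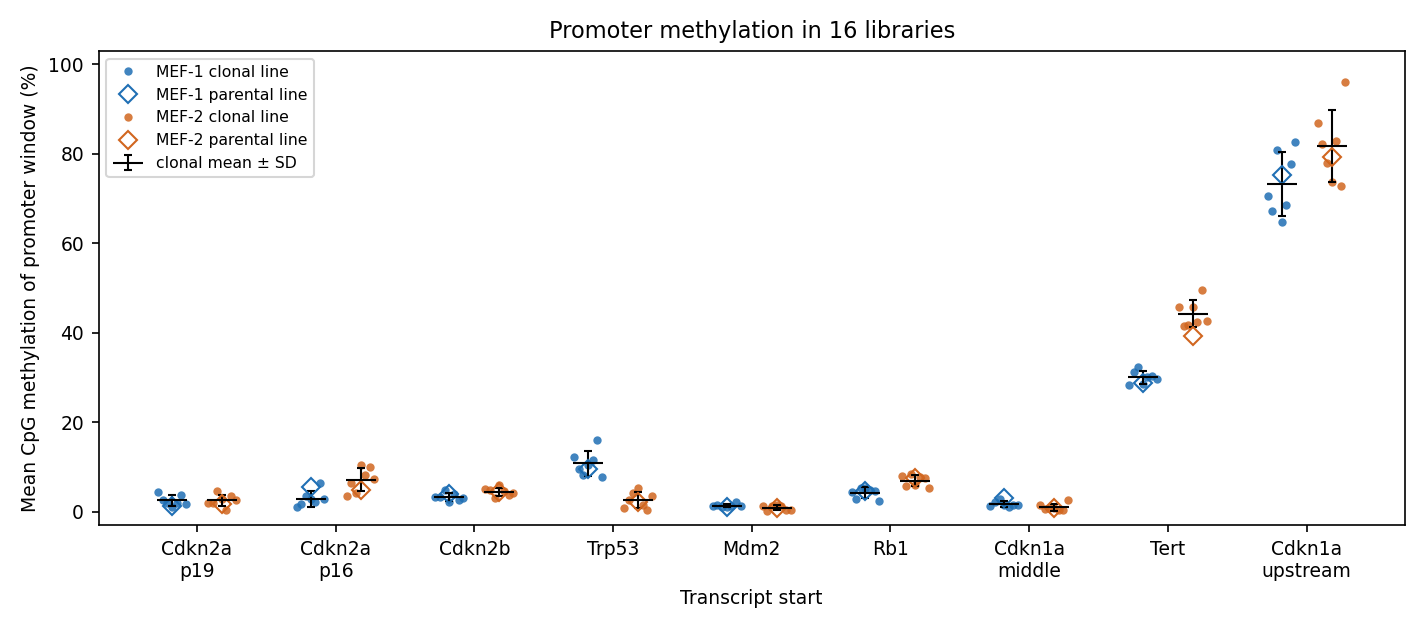
Mean CpG methylation (%) of the promoter window at 9 transcript starts. Filled points are clonal lines, open diamonds the parental lines, and bars the clonal mean ± SD (7 lines). The middle Cdkn1a start was measured from CpGs with at least 5 reads per library, the other starts from CpGs covered by 10 or more reads in every library. All starts but Tert and the upstream Cdkn1a start lie at 16.03% or below in every library.

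The p19 start of Cdkn2a (transcript Cdkn2a-202 on the minus strand, starting at position 89294653 of chromosome 4) showed no methylated promoter in any line. Its 21 measured CpGs all lay upstream, from -289 to -998 bp. Their mean level ranged from 1.13% through a median of 1.96% up to 4.50% in the MEF-1 clones, and from 0.501% through 2.68% to 4.61% in the MEF-2 lines. The parental lines stood at 1.41% and 1.72%, and all 4 sets of libraries overlapped. The family means were 2.55 ± 1.20% and 2.57 ± 1.302% (adjusted p = 0.909). A single CpG of this window passed, at -411 bp, with 6.83 ± 7.07% in MEF-1 against 0% in all 7 MEF-2 lines (adjusted p = 0.0319), a call that was lost in 5 of 16 settings (up to 0.0923). Summed over the 21 CpGs, 2 of 432 read counts of MEF-2 line 5, the lowest library, were methylated (0.463%, Wilson 95% interval 0.127 to 1.67%). A read that spans several CpGs is counted at each of them. The interval takes these counts as independent and covers counting error only. The 200 bases just before this start are shown because they are the CpG-densest part of the promoters described here, with CpGs in capitals (mm10, minus strand, chr4:89294654-89294853). The p16 promoter follows for contrast (minus strand, chr4:89282193-89282392), likewise with every CpG in capitals.
Cdkn2a p19 promoter: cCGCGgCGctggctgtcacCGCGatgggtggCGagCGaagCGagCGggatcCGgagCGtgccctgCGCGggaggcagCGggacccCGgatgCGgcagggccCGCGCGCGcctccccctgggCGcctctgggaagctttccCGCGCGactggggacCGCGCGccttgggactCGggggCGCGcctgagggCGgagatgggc
Cdkn2a p16 promoter: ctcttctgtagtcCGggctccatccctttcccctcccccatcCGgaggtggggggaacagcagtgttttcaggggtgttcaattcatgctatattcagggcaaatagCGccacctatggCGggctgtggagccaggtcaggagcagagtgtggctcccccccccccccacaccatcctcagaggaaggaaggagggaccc

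None of the 31 CpGs of that p19 stretch had 10 reads in all 16 libraries, against 2 of the 4 CpGs of the p16 stretch. With CpGs taken from each library on its own at 5 or more reads, the p19 window held a median of 109 CpGs per library. These averaged 7.84 ± 1.72% and 4.59 ± 1.54% in the respective families. Here and wherever this setting is used below, the CpGs averaged can differ between libraries. The window thus stayed under 10% in every library with these shallower CpGs, and no test was run on this setting. RefSeq's promoter windows (250 bases before to 50 after a start, GRCm38.p6) matched 6 of the 7 genes, and they hold 45 CpGs at p19, 12 at p16, 18 at Cdkn2b, 35 at Mdm2, 10 at Trp53, 15 at Tert, and 2 and 23 at the upstream and middle starts of Cdkn1a. The median over all 32851 such windows is 7. A GC box (GGGCGG on either strand), the motif of SP1-type factors, occurs in the windows of p19, p16, Cdkn2b, Mdm2, Tert and the middle Cdkn1a start and in 35.7% of all windows.

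The p16 start (Cdkn2a-201, 89282192) was also low, with slightly higher levels in MEF-2. Over 27 CpGs, the MEF-1 clonal lines ranged from 1.06% through 2.79% to 6.53% and the MEF-2 lines from 3.65% through 7.37% to 10.5%. The ranges overlap, and the parental lines (5.47% and 4.90%) lie inside both. The means were 2.95 ± 1.77% and 7.23 ± 2.65% (adjusted p = 0.0471), and the call was lost in 14 of 19 alternative settings, most widely with the 4 CpGs before the start alone (adjusted p = 0.804). Most CpGs of the window lie in exon 1α, the p16-specific first exon, where 20 CpGs averaged 2.62 ± 2.00% in MEF-1 and 8.09 ± 4.02% in MEF-2. None of these 20 CpGs passed the test on its own, yet single CpGs reached 56.5% (189 bp after the start) and 59.1% (167 bp after it) in a MEF-2 line.

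Exon 2, which p16 and p19 share in different reading frames, carried the clearest family difference of the locus. Its 31 CpGs (chr4:89276645-89276985) averaged 6.79 ± 2.63% in the MEF-1 clonal lines, with a lowest of 3.87%, a median of 6.64% and a highest of 11.4%. The MEF-2 clonal lines ranged from 16.3% through 21.5% to 33.0%, with a mean of 22.3 ± 5.86%, so the families did not overlap. The parental lines lay between them and close to each other, at 14.7% in MEF-1 and 13.3% in MEF-2. All 7 MEF-1 clonal lines stood below their parental line and all 7 MEF-2 clonal lines above theirs, by -7.93 and 8.92 percentage points on average. Of the 31 CpGs, 16 passed the test between families, beside 20.2% of all CpGs, and all 16 were higher in MEF-2. The largest difference among them was at 89276878, with 8.60 ± 12.3% in MEF-1, 54.9 ± 20.4% in MEF-2 and 50.0% in the MEF-2 parental line (adjusted p = 0.00405). A CpG in the intron just after exon 2, at 89276541, stood at 7.98 ± 11.1% and 60.4 ± 16.02% (adjusted p = 0.00131). The opposite pattern was found in the long first intron of the p19 transcript at 89291478, where MEF-1 lines ranged from 92.3 to 100% and MEF-2 lines from 31.3 to 80.0% (adjusted p = 0.000264). Upstream of the p19 window, at -1875 bp, MEF-1 lines ranged from 2.67 to 96.4% and MEF-2 lines from 88.5 to 100% (adjusted p = 0.00566). Over the whole gene, 21 of 100 CpGs passed (21%), close to the 20.2% of all CpGs, and 19 of the 21 were higher in MEF-2. The gene region, which includes exon 2 and its 16 called CpGs, also passed (8.59 ± 1.09% and 15.9 ± 2.24%, adjusted p = 5.74e-05). Here too the parental lines were close to each other, at 12.4% in MEF-1 and 12.3% in MEF-2. Both lay between the ranges of the MEF-1 clonal lines (7.37 to 10.4%) and the MEF-2 clonal lines (13.2 to 19.1%). Gene regions passed in 4 of the 7 genes (Cdkn2a, Cdkn2b, Trp53 and Mdm2), beside 44.7% of all 15161 regions.

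**Figure D2:**
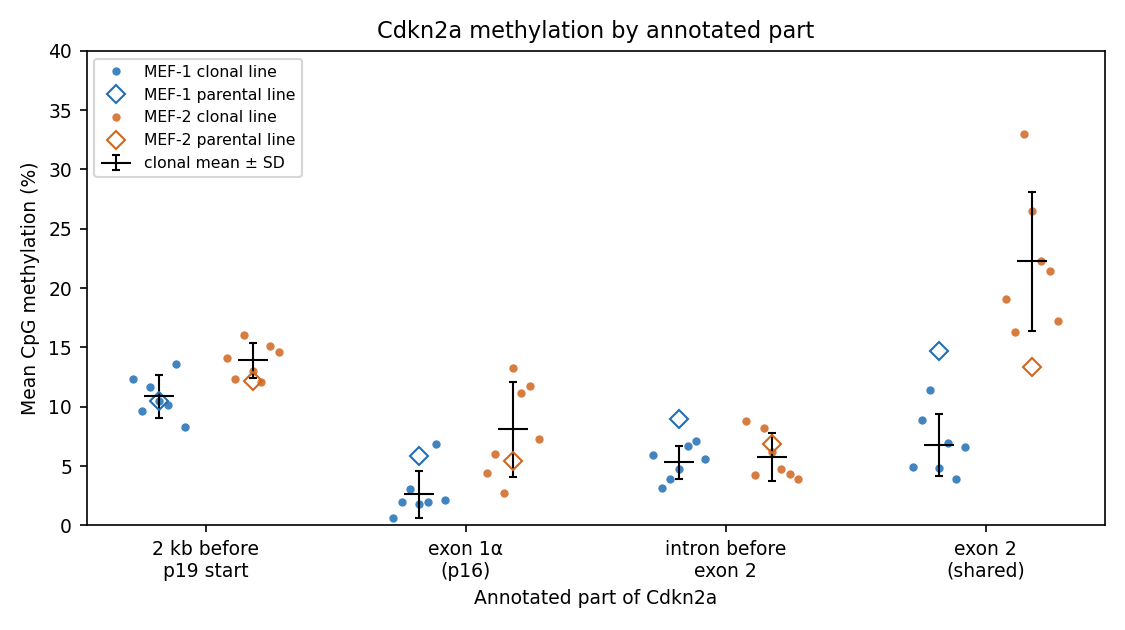
Mean CpG methylation (%) of 4 annotated parts of Cdkn2a in the 16 libraries. Filled points are clonal lines, open diamonds the parental lines and bars the clonal mean ± SD (7 lines). In exon 2 the MEF-1 clonal lines (3.87 to 11.4%) lie below both parental lines and the MEF-2 clonal lines (16.3 to 33.0%) above them, whereas in the intron before exon 2 the families overlap.

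Cdkn2b (chr4:89306299-89311039) had an unmethylated start in both families and an intronic block that separated them. The start window (31 CpGs) averaged 3.33 ± 0.881% in MEF-1 and 4.53 ± 0.913% in MEF-2, with overlapping ranges and parental levels of 4.08% and 4.45% (adjusted p = 0.783). With the 8 CpGs of the 1000 bp before the start alone, the levels were 8.143 ± 2.606% and 13.55 ± 2.795%. Within the start window, the CpG at -240 bp was slightly higher in MEF-1 (9.39 ± 8.91% and 0.217 ± 0.573%, adjusted p = 0.0152). Without MEF-1 lines 1, 4 and 5 the call was lost (adjusted p = 0.0605), and the difference in pooled reads at Cdkn2b_89311279, this CpG, went from 8.65 to 2.96 percentage points. The CpG at -578 bp stood at 35.1 ± 23.1% in MEF-1 against 89.0 ± 12.9% in MEF-2. The first intron differed most, where 29 CpGs averaged 17.6 ± 1.86% in MEF-1 against 33.1 ± 2.76% in MEF-2. All 7 MEF-2 lines (27.9 to 35.9%) lay above all 7 MEF-1 lines (14.9 to 21.1%). The 300 bases that hold most of this difference are shown with their 9 measured CpGs in capitals (mm10, minus strand, chr4:89309901-89310200).
Cdkn2b intron: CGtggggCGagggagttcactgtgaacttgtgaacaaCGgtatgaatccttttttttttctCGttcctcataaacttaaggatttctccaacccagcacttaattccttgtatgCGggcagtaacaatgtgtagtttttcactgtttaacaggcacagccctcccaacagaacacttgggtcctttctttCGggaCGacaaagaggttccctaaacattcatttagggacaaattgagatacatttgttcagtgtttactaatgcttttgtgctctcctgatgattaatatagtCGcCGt

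The last pair of capitals in the Cdkn2b stretch, CpGs 89309905 and 89309902, were near unmethylated in MEF-1 and near fully methylated in MEF-2. At 89309905 the MEF-1 lines ranged from 0 through 3.57% to 22.7% and the MEF-2 lines from 83.3% through 93.3% to 100%, and the families did not overlap (adjusted p = 2.81e-06). The parental levels, 14.8% and 91.9%, lay within the respective clonal ranges. The CpG that opens the stretch, 89310199, behaved alike with 12.6 ± 11.9% and 92.0 ± 6.33% (adjusted p = 1.47e-05). The change was not uniform along these bases. CpG 89310138 was low in both families (1.98 ± 3.44% and 1.48 ± 3.91%), and 89310009 was high in both (93.6 ± 5.79% and 85.3 ± 19.1%, adjusted p = 0.517). The last exon of Cdkn2b was methylated throughout, at 96.4 ± 3.74% and 96.8 ± 1.26%.

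The p53 gene, Trp53 (chr11:69580359-69591873), had an unmethylated start in all libraries. Its window (13 CpGs) ranged from 7.69% through 10.4% to 16.03% in the MEF-1 clonal lines and from 0.459% through 2.71% to 5.44% in the MEF-2 lines. These ranges do not overlap, the parental levels were 9.58% and 2.26%, and the difference passed (10.8 ± 2.84% and 2.70 ± 1.82%, adjusted p = 0.000674). With CpGs at 5 or more reads per library the difference was 4.32 rather than 8.11 points, and the ranges did not overlap. The reported difference came from a pair of CpGs at the far end of the measured stretch, inside the neighbouring gene Wrap53, which is read from the opposite strand and overlaps the window but not Trp53 itself. The CpG at -285 bp stood at 93.1 ± 4.86% in MEF-1 and 19.9 ± 21.1% in MEF-2 (adjusted p = 0.000996), with parental levels of 75.0% and 8.33%. At -274 bp the MEF-1 lines ranged from 0 to 100% and the MEF-2 lines from 0 to 3.45% (adjusted p = 0.0153), a call that was lost in 2 of 16 settings (adjusted p up to 0.4045). The other 11 CpGs of the window, from -218 to 75 bp, averaged at most 4.46% in either family.

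Inside Trp53, CpGs of the coding exons 7 and 8 were close to fully methylated in the clonal lines of both families, with 1 exception. These exons encode part of the DNA-binding domain. The exception is position 69589213 in exon 7, the first base of codon 246 of transcript Trp53-203. It is shown with the CpG 3 bp before it, both in capitals, the exception being the second (mm10, plus strand, chr11:69589183-69589244).
Trp53 exon 7: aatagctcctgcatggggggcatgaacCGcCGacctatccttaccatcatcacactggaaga

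At this CpG the MEF-1 clonal lines ranged from 90% through 95.5% to 100% and the MEF-2 lines from 36.0% through 48.6% to 61.8%. No line of one family reached the range of the other (adjusted p = 1.97e-05). In pooled reads 114 of 119 were methylated in the MEF-1 clonal lines (95.8%) and 113 of 233 in the MEF-2 lines (48.5%). The parental lines matched, with 26 of 26 reads in MEF-1 and 24 of 48 in MEF-2 (Wilson 95% interval 36.4 to 63.6%). The neighbour 3 bp before it was methylated in 116 of 116 MEF-1 reads and 221 of 229 MEF-2 reads, and in 47 of 47 reads of the MEF-2 parental line. The other 7 CpGs of exons 7 and 8 had under 10 reads in at least 1 library and are not among the 478. Pooled over clonal lines they lay between 96.5 and 100% in both families, and in the MEF-2 parental line 28 of 34 reads were methylated at 69589607 and 16 of 19 at 69589658. In bisulfite reads an unmethylated C and a C-to-T base change give the same count, so these cannot be told apart at this CpG. A pattern of at least 90% in all 8 MEF-1 libraries and 30 to 70% in all 8 MEF-2 libraries was found at 3226 of 1203687 CpGs (0.268%), and at 2 of the 478 CpGs, the other being 117709167 in an intron of Mdm2.

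**Figure D3:**
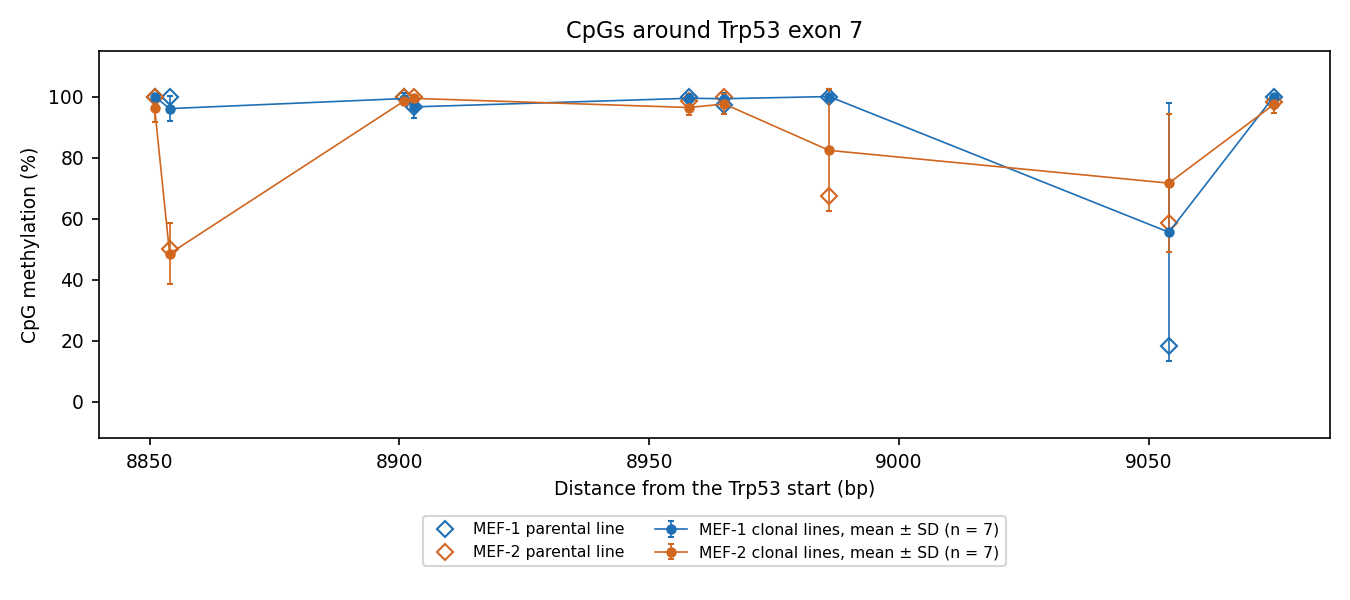
CpG methylation (%) from exon 7 of Trp53 onwards against distance from the Trp53 start (bp). Filled points are means of 7 clonal lines with SD bars, and open diamonds the parental lines. The second CpG lies near 50% in MEF-2, parental and clonal alike, and at 90% or more in all MEF-1 libraries, while the CpG 3 bp before it is high in both families.

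Mdm2 (chr10:117688875-117710758, minus strand) had an unmethylated upstream start and a second intron that was partly methylated in MEF-1. Its other promoter, which p53 activates, lies at the end of the first intron, where none of the 60 CpGs fell, and the 5 CpGs of the exon that follows were low in the clonal lines of both families (1.01 ± 1.15% and 2.07 ± 1.86%). The MEF-1 parental line stood at 9.72% there, above all 7 of its clonal lines (0 to 3.02%), and the MEF-2 parental line at 2.31%. The start window held 12 CpGs, all of them before the start. It averaged 1.39 ± 0.370% in MEF-1 and 0.943 ± 0.549% in MEF-2, and the ranges overlap (adjusted p = 0.332). With CpGs at 5 or more reads per library its levels were higher, at 6.13 ± 2.81% and 5.36 ± 1.38%, with MEF-1 line 7 at 10.5%. The second intron, right after that exon, is short and is shown with its 9 measured CpGs in capitals. GENCODE M21 also assigns these bases to an exon of the non-coding transcript Mdm2-208 (mm10, minus strand, chr10:117709785-117709945).
Mdm2 second intron: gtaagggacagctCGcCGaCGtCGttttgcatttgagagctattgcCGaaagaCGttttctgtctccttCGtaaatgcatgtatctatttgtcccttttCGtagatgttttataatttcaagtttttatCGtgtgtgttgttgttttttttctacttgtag

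These 9 CpGs averaged 23.1 ± 9.40% in MEF-1 and 1.64 ± 0.753% in MEF-2, with parental levels of 19.99% and 2.54%. The MEF-1 lines ranged from 12.9% through 18.5% to 38.2%, all above the highest MEF-2 line at 2.49%. The fifth CpG of the stretch, 117709898 (860 bp after the start), differed most, at 80.4 ± 11.8% in MEF-1 and 2.32 ± 1.81% in MEF-2 (adjusted p = 4.52e-07). Other CpGs of the stretch were far lower in MEF-1, such as 117709815 at 0.955 ± 1.74%. The pattern went on past it. In the next exon, 117709715 stood at 40.2 ± 8.09% and 3.88 ± 3.05%, and the following intron at 63.8 ± 5.06% and 50.5 ± 4.75% over 17 CpGs. There the CpGs 117709513 (81.3 ± 19.5% and 11.8 ± 18.04%) and 117709090 (97.6 ± 3.20% and 28.8 ± 24.9%) were higher in MEF-1, and 117708923 (56.8 ± 10.0% and 89.0 ± 7.72%) was higher in MEF-2. The call at 117709513 was lost in 1 of 17 settings, the replicate block (adjusted p = 0.0573). More than 1 kb before the start the order was also reversed, with 45.6 ± 18.96% in MEF-1 and 92.1 ± 3.28% in MEF-2 at -1125 bp (adjusted p = 0.000291) and 62.3 ± 20.2% and 96.1 ± 3.22% at -1198 bp (adjusted p = 0.00162). Over the upstream 2 kb, 4 of 20 CpGs passed, beside 20.2% of all CpGs, and 1 of the 4 was higher in MEF-1. Of the 60 CpGs of Mdm2, 18 passed (30%), beside 20.2% of all CpGs, and 13 of the 18 were higher in MEF-1. The Mdm2 gene region passed at an adjusted p of 0.0301, a call that was lost in 9 of 17 settings (up to 0.141).

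Cdkn1a (chr17:29090976-29100727) had the fewest called CpGs of the 7 genes, 2 of 57 (3.51%), beside 20.2% of all CpGs. Its gene region did not pass (26.3 ± 0.832% and 27.1 ± 0.770%, adjusted p = 0.272). Its upstream start, at 29090979, was highly methylated. The 5 CpGs there ranged from 64.6% through 70.7% to 82.7% in MEF-1 and from 72.7% through 82.1% to 96.0% in MEF-2, with overlapping families and an adjusted p of 0.32. The parental lines lay inside these ranges at 75.3% and 79.3%. The middle start, 29093769, from which the main transcript is read, had under 3 CpGs at 10 reads in all 16 libraries. At 5 or more reads per library its CpGs, a median of 42 per library, were unmethylated. Levels were 1.76 ± 0.603% in MEF-1 and 1.06 ± 0.805% in MEF-2, with parental levels of 3.01% and 0.846%. Both called CpGs were higher in MEF-2. These were 29091072 in the leader of the upstream transcript (65.3 ± 16.2% and 93.4 ± 6.01%, adjusted p = 0.0109, but 0.0941 without MEF-1 lines 1, 4 and 5) and 29094368 in the intron after the main start (3.07 ± 3.33% and 25.8 ± 15.6%, adjusted p = 0.00192). The third start of the gene was not measured.

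Rb1 (chr14:73183673-73325822, minus strand) had a low promoter window in both families, with its methylated CpGs at the far upstream end. Over 32 CpGs upstream of its start, the MEF-1 lines ranged from 2.46% through 4.74% to 5.32% and the MEF-2 lines from 5.41% through 7.52% to 8.45%. The families did not overlap, by a narrow margin (4.30 ± 1.16% and 6.98 ± 1.22%, adjusted p = 0.0116), and the parental lines fell in the same places (4.65% and 7.48%). The ranges overlap when reads are pooled over the CpGs (2.43 to 6.05% and 4.88 to 10.71%) and when CpGs are taken at 5 or more reads per library (2.07 to 4.31% and 2.74 to 5.92%), where the difference was -1.02 rather than -2.68 points. A single CpG of the window passed on its own, 73326610 at -788 bp, with 6.49 ± 10.6% in MEF-1 and 74.3 ± 23.9% in MEF-2 (parental 3.92% and 72.7%, adjusted p = 0.00125). At -971 bp both families were high (78.0 ± 24.1% and 89.6 ± 21.5%, adjusted p = 0.513), and at -830 bp they stood at 7.80 ± 12.1% and 11.6 ± 13.8%. Each of the 29 CpGs from -753 to -383 bp averaged at most 4.28% in the clonal lines of either family. Deep in the gene, 73234312 was higher in MEF-1 (87.4 ± 7.65% and 17.0 ± 14.4%, adjusted p = 4.68e-05), while 73209891 was higher in MEF-2 (47.9 ± 18.3% and 97.0 ± 2.32%, adjusted p = 6.34e-05), as was 73209886 beside it (68.3 ± 16.5% and 97.8 ± 2.92%). Nearer the start, in the first intron, 73324345 and 73322402 were close to 100% in MEF-1 and ranged from 48.7 to 100% and from 55.8 to 100% in MEF-2. The Rb1 gene region as a whole did not pass (21.5 ± 0.517% and 21.8 ± 0.5997%, adjusted p = 0.164).

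Tert (chr13:73626911-73649843) was the gene with the widest promoter difference. Its window (32 CpGs) ranged from 28.4% through 30.0% to 32.4% in the MEF-1 clonal lines and from 41.6% through 42.7% to 49.7% in the MEF-2 lines. All MEF-2 lines lay above all MEF-1 lines. The parental levels were 28.8% and 39.3%, and the means 30.1 ± 1.41% and 44.3 ± 2.97% (adjusted p = 4.39e-06). With CpGs at 5 or more reads per library the difference was -8.74 rather than -14.17 points, and the ranges did not overlap. The core promoter, where the differing CpGs lie among others that are low in both families, is shown with its 8 measured CpGs in capitals (mm10, plus strand, chr13:73626766-73626910).
Tert core promoter: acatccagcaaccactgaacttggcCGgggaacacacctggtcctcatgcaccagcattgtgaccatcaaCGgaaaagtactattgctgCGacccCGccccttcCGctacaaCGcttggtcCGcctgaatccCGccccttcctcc

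From left to right these CpGs lie at -125, -80, -61, -55, -46, -38, -29 and -18 bp from the start. Those at -55 and -18 fall in a GC box, read here as CCGCCC. The CpG at -46 bp was near 0 in MEF-1, with a highest line of 6.45%, and ranged from 61.9% through 96.2% to 100% in the MEF-2 clonal lines (adjusted p = 1.05e-05). In the MEF-2 parental line it stood at 44.4%, below all 7 of its clonal lines, and 5 of these differed from it by Fisher's exact test. The CpG at -80 bp behaved alike, with 4.71 ± 1.78% in MEF-1, 63.4 ± 16.5% in MEF-2 and 17.2% in the MEF-2 parental line (adjusted p = 1.64e-05). At -55 bp the values were 2.27 ± 2.96% and 48.6 ± 16.5%, with 20% in the MEF-2 parental line. Between them, the CpG at -61 bp was low in both families (3.03 ± 3.45% and 3.56 ± 4.08%, adjusted p = 0.88), so neighbours 6 and 19 bp apart differed in level within the same lines.

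Farther upstream in the Tert window both families were more methylated, though not evenly. At -600 and -492 bp both were near 100%. The CpG at -537 bp between them stood at 27.1 ± 17.6% in MEF-1 and 96.8 ± 3.92% in MEF-2 (adjusted p = 4.50e-05), with parental levels of 13.6% and 100%. Downstream, 100 bp after the start, the levels were 3.50 ± 5.37% and 48.8 ± 12.9%. Farther into the gene the order turned. An intronic CpG at 73646508 stood at 95.9 ± 3.40% in MEF-1 and 3.47 ± 6.19% in MEF-2 (adjusted p = 1.26e-06), and the CpGs at 73639001 (91.8 ± 9.23% and 14.7 ± 13.9%) and 73628832 (91.4 ± 8.01% and 33.8 ± 22.3%) were higher in MEF-1 as well. Of the 68 CpGs of Tert, 22 passed (32.35%), beside 20.2% of all CpGs. Among these 22, 12 were higher in MEF-1 and the other 10 in MEF-2. The gene region did not pass (57.9 ± 1.04% and 56.0 ± 2.52%, adjusted p = 0.301).

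**Figure D4:**
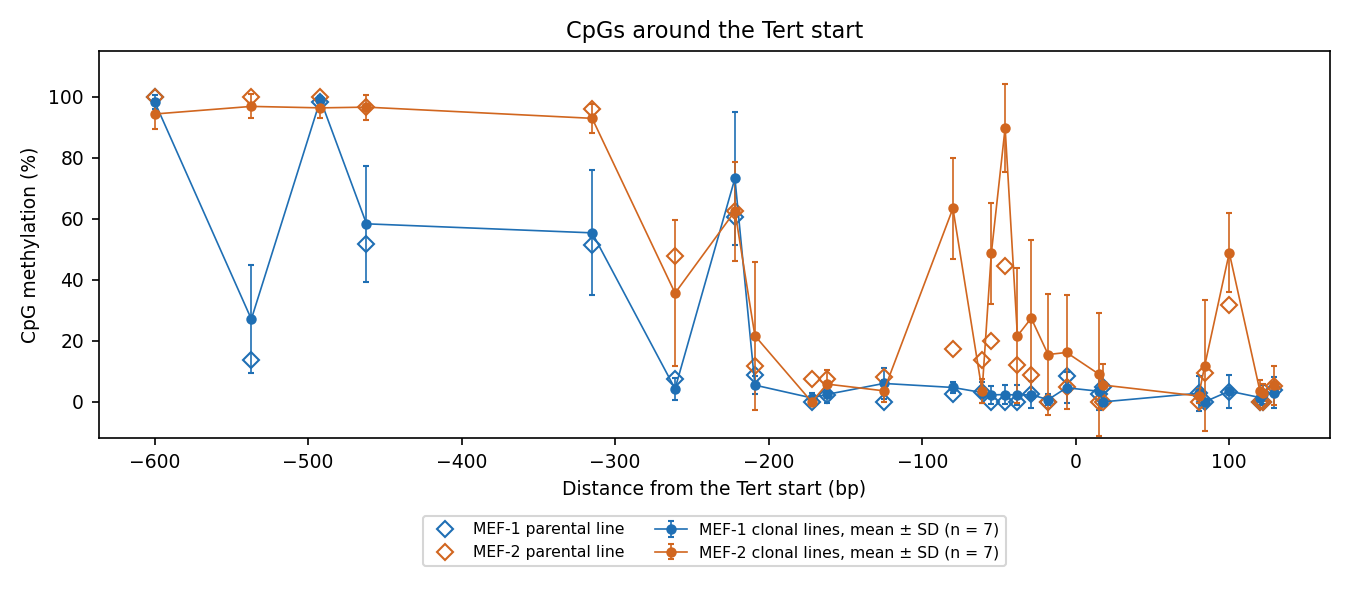
CpG methylation (%) around the Tert start against distance from it (bp). Filled points are means of 7 clonal lines with SD bars, and open diamonds the parental lines. Near the start MEF-1 lies below 7% throughout, whereas MEF-2 clonal lines peak at -80 bp (63.4%) and -46 bp (89.8%), above their parental line (17.2% and 44.4%), with the CpG at -61 bp near 3% in both families.

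Read coverage was compared next, because a lost copy lowers the reads at a locus relative to the rest of its chromosome. Relative coverage is the mean depth of the CpGs of a locus over that of its chromosome in the same library, divided by the median of the 14 clonal lines. No line fell under 0.7 in relative coverage of Cdkn2a or Cdkn2b. Cdkn2a lay between 0.925 and 1.16 in the MEF-1 clonal lines and between 0.903 and 1.12 in the MEF-2 lines, and the parental lines were at 1.07 and 1.00. Cdkn2b lay between 0.851 and 1.20 in MEF-1 and between 0.933 and 1.07 in MEF-2. Its exons alone (53 CpGs) varied more, here with the median of the MEF-2 clonal lines as the divisor. They ranged from 0.731 (line 2) to 1.40 (line 5) in MEF-1 and from 0.783 (line 4) to 1.09 in MEF-2. Tert, Rb1, Cdkn1a and Mdm2 had family means between 0.96 and 1.07. None of these 6 loci passed a limma test between the families, with adjusted p from 0.66 (Mdm2, log2 difference -0.13 ± 0.068 SE) to 0.988 (Cdkn1a, -0.0045 ± 0.054 SE).

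Trp53 was read at close to 50% of the depth in the whole MEF-1 family. Its 159 CpGs were covered by 10.7 to 15.4 reads on average in MEF-1 clones and by 21.2 to 29.0 in MEF-2 clones, while the chromosome means of the families overlapped (21.9 to 27.4 and 23.1 to 30.7). Relative coverage ranged from 0.626 through 0.673 to 0.804 in the MEF-1 clonal lines and from 1.20 through 1.35 to 1.47 in the MEF-2 clonal lines. No MEF-1 library reached the range of the MEF-2 libraries, and the parental lines (0.766 and 1.275) stood with their families. The log2 difference was -0.94 ± 0.056 SE (limma, adjusted p = 2.87e-08), and Trp53 was the 1 locus of 7 that passed, beside 0.403% of 17618 gene regions tested. With the median of the MEF-2 clonal lines as the divisor, the value was 0.514 ± 0.0448 in MEF-1 (parental line 0.5683) and 0.996 ± 0.0627 in MEF-2 (parental line 0.946). On this scale the lower coverage held for the upstream 2 kb (0.450 to 0.588), the exons (0.425 to 0.603) and the introns (0.465 to 0.619) of the MEF-1 clonal lines alike.

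The lowered coverage reached far beyond Trp53. Taken in blocks of 10 CpGs, it ran from the CpG at 69469522 to that at 69919879 of chromosome 11, 450.4 kb that hold 2380 measured CpGs and overlap 36 protein-coding genes. With these blocks the stretch begins inside Dnah2 and ends inside Eif5a. The Eif5a region as a whole was not lowered, at 1.013 of the MEF-2 median in the MEF-1 clonal lines (0.839 to 1.158). With blocks of 20 CpGs the last CpG inside was 69915642, in Gps2. Besides Trp53 the stretch includes Wrap53, whose product guides telomerase RNA, and Polr2a, which encodes the largest subunit of RNA polymerase II. Coverage inside it was 0.478 to 0.504 of that of the flanks (up to 1 Mb away) in all 8 MEF-1 libraries, the parental line at 0.501 included. In the MEF-2 libraries it was 0.916 to 0.965. In MEF-1 line 6, whose chromosome 11 was shifted elsewhere too (flanks at 1.13 of the MEF-2 median), the ratio was 0.480. Beyond the end of the stretch, the gene region of Dvl2 was also lower in MEF-1. It averaged 0.808 of the MEF-2 median in the clonal lines (0.679 to 0.962), with the parental line at 0.820. Under 0.7 of the MEF-2 median in all 7 MEF-1 clonal lines were 36 gene regions, or 0.204% of those measured. All 36 were also under 0.7 in the MEF-1 parental line, and 30 of them lie on chromosome 11 and 6 on chromosome 17. These values give depth over measured CpGs, and reads that cross an end of the stretch were not analysed here. At the Trp53 CpGs the methylation levels of MEF-1 therefore rest on fewer reads than those of MEF-2.

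**Figure D5:**
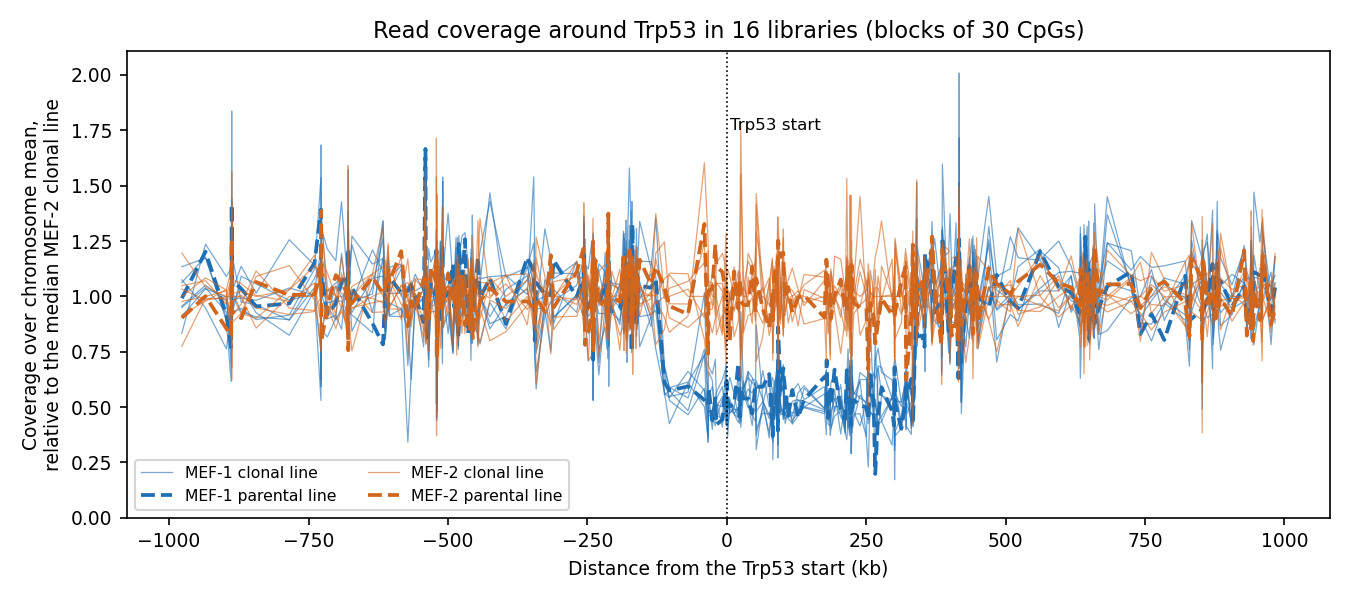
Read coverage around Trp53 in blocks of 30 CpGs, as coverage over the chromosome mean relative to the median MEF-2 clonal line, against distance from the Trp53 start (kb). Thin lines are clonal lines and dashed lines the parental lines. All 8 MEF-1 libraries fall to about 0.5 over 450.4 kb around Trp53 and on average return to about 1 on both sides. The MEF-2 clonal lines centre on 1 by construction, since each block is divided by their median.

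Measured against the median autosome, some loci moved with the mean of their chromosome in single lines. Whether such a shift spans the whole chromosome was not tested. Chromosome 14, which carries Rb1, stood at 0.819 in MEF-1 line 2 and 0.758 in MEF-2 line 3, and Rb1 at 0.769 and 0.694 in these lines. Chromosome 17, with Cdkn1a, was at 0.813 in MEF-1 line 1, and Cdkn1a at 0.814. Chromosome 13, with Tert, stood at 1.16 in MEF-1 line 1 (Tert 1.10), and chromosome 10, with Mdm2, at 1.16 in MEF-2 line 4 (Mdm2 1.23). None of these shifts was shared by a family.

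Each clonal line was then set against its own parental line at each CpG (Fisher's exact test, adjusted within each line). Of the 6692 pairs of a line and a CpG, 268 passed, beside 5.01% of such pairs over all CpGs, and 129 of the 478 CpGs (27%) passed in at least 1 line, beside 32.9% of all CpGs. This was 42 of 100 CpGs in Cdkn2a and 27 of 68 in Tert (39.7%), whereas it was 6 of 57 in Cdkn1a (10.5%) and 7 of 40 in Trp53 (17.5%). The lines passed at 6 (MEF-1 lines 1 and 4) to 30 CpGs (MEF-2 line 6), and in that line 22 were gains and 8 losses. In MEF-1 lines gains and losses ranged from 1 to 9 and from 4 to 16 per line, and in MEF-2 lines from 13 to 22 and from 5 to 10. At the 478 CpGs gains made up 41.2% of the calls for MEF-1 lines and 67.8% for MEF-2 lines, beside 50.9% and 54.8% over all CpGs, and these shares were not tested.

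The fidelity score of a CpG, taken from a deposited column, is the share of the 14 clonal lines at 0 to 10, 40 to 60 or 90 to 100%. It averaged 0.873 over the 478 CpGs and 0.833 over all CpGs. Trp53 (0.959), Rb1 (0.952) and Cdkn1a (0.932) lay above these means, and Cdkn2a (0.786) and Tert (0.812) below both. Of the Cdkn2a CpGs 38% had a score under 0.75, compared with 28.9% of all CpGs and 2.5% of the Trp53 CpGs.

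Promoter windows of other genes of the same pathways differed between the families in both directions. Of 23 windows of the p53 pathway 11 passed, 9 higher in MEF-1, with a median difference of 0.715 percentage points (MEF-1 minus MEF-2). Over all 15655 windows 6713 passed, 4153 higher in MEF-1, and the median was 0.449. The p53 targets Sfn (77.8 ± 3.61% and 64.7 ± 12.6%), Perp (74.5 ± 2.46% and 65.2 ± 5.70%), Sesn2 (25.6 ± 2.59% and 17.3 ± 2.01%) and Rprm (17.9 ± 1.28% and 11.9 ± 2.70%) were higher in MEF-1. Among cyclins, CDK inhibitors and RB relatives 11 of 23 windows passed, 5 higher in MEF-1 and 6 in MEF-2 (median -1.01). Ccne1, the cyclin that drives S phase entry, stood at 53.7 ± 5.68% in MEF-1 and 28.2 ± 3.63% in MEF-2, and Ccnd1, the cyclin partner of CDK4, at 7.16 ± 1.68% and 23.0 ± 5.34%. Cdkn2c, which encodes the p16 relative p18, was at 5.74 ± 0.398% and 8.62 ± 1.29%, and Ccnd3 at 16.6 ± 1.31% and 25.7 ± 4.38%.

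Among regulators of the Ink4a/Arf locus 6 of 17 windows passed (35.3%), beside 42.9% of all windows, and 4 of the 6 were higher in MEF-1 (median difference 0.782). The repressor Tbx2 stood at 22.1 ± 5.17% in MEF-1 against 4.86 ± 4.22% in MEF-2, the Polycomb gene Bmi1 at 19.3 ± 3.36% and 34.7 ± 4.34%, Ezh2 at 10.95 ± 1.76% and 3.43 ± 3.12%, and Rnf2 at 2.86 ± 1.59% and 8.02 ± 3.00%. Of 14 windows of telomere genes 5 passed (35.7%), beside 42.9% of all windows, and the median difference was 1.22. All 5 were higher in MEF-1, as were 4153 of the 6713 windows called over all genes. The called windows include Wrap53 (14.8 ± 4.16% and 3.19 ± 2.64%), besides Nop10, Tinf2 and Terf2ip at differences of 1.00 to 1.60 points. Wrap53 lies within the stretch of lowered coverage. It also holds the pair of CpGs that made the Trp53 window difference, so the calls of the Wrap53 and Trp53 windows may not be separate. Among secretory and other senescence genes 1 of 5 windows passed (20%), beside 42.9% of all windows. It was that of Glb1, which encodes the enzyme stained as a senescence marker (8.38 ± 1.18% and 12.0 ± 1.32%).

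Promoter windows of cell type markers are given as a description. Both families carry the fibroblast label, so a test between them cannot check it. Windows of 4 of 8 fibroblast genes were measured and 0 of 4 passed, beside 42.9% of all windows, with Vim, Col1a2 and Twist2 under 2% and Thy1 at 97.2% and 96.3%. Blood marker windows (Ptprc and Spi1) were at 71.6% or above in both families, and 1 of 3 passed, higher in MEF-2. Of the endothelial markers, Pecam1 was higher in MEF-1 (79.2 ± 3.00% and 65.2 ± 6.72%) and Kdr stood at under 10% in both. All 5 epithelial windows, of Cdh1, Epcam, Krt8 and Krt18, passed and were higher in MEF-1 (medians 48.4% and 19.2%), as were 4153 of the 6713 windows called over all genes. Their levels ranged widely, from 22.0 to 95.9% in MEF-1 and from 9.39 to 81.6% in MEF-2. Each clonal line was grown from 1 sorted cell.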

How the data were processed

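tcBS-seq counts of 2 parental and 14 clonal lines were used, grouped by the labels. According to the study's methods and processing notes, the authors trimmed reads with Trim Galore 0.6.0, aligned them to mm10 with Bismark, and dropped reads of low mapping quality. Removal of PCR duplicates is not given in the sources used here, so intervals cover counting error only. The deposited values are unnormalised counts of methylated and unmethylated reads per CpG. The series table repeats them for CpGs covered by 10 or more reads in every library, without chromosomes 12, 18, 19, X and Y. Counts were equal at 1203687 of 1203687 CpGs. The fidelity score in the series table is a fraction of clonal lines that the authors computed before deposit. Libraries held 59243669 to 90633091 calls, with median coverages of 26 to 39 reads.

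The members and the gene lists were chosen with earlier results of these data known. Families were compared with quasi-binomial models of the counts (F-test, dispersion not below 1) and each line with its parental line by Fisher's exact test. Coverage used limma 3.58.1 in R 4.3.3 on the log2 of the ratio plus 0.01, over CpGs with at least 10 reads in at least 4 libraries. P-values were adjusted (Benjamini-Hochberg) over all CpGs, windows or regions, and called under 0.05. They measure the spread between clonal lines of 1 embryo per family. Python 3.11.15 with numpy 2.4.6, pandas 2.3.3 and scipy 1.17.1 was used, and scripts were tested on simulated data. All promoter windows, up to 3 called CpGs per gene and direction with the largest difference, and up to 4 called genes per list were named. Further CpGs were named after their values were seen. Alternatives were a minimum of 20 or of 5 reads, other windows and divisors, limma for windows, a replicate block, and leaving out each line. Sequences were read from GRCm38.p6, where all 478 positions are the C of a CpG, and promoter windows came from RefSeq.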

Additional observations from a re-analysis of the deposited data

Results flagged for a closer look

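Of 94 sets of 7 clonal values examined, 15 held a line that stood far from its 6 others. Chance gives about 1 such set in 20 for normally distributed values, a rate that cannot be applied where most lines share the value 0 or 100%, since any other value is then marked. MEF-1 line 4 was at 1.221 for the relative coverage of Tert. In Cdkn2a, MEF-1 line 1 had 92.31% at 89291478, where the other MEF-1 lines had 100%, and 31.91% at 89276541. At the latter CpG MEF-2 line 4 had 94.12%, and at 89276878 MEF-1 line 2 had 33.33%. In Cdkn2b, MEF-2 line 6 had 1.515% at 89311279, where the other MEF-2 lines had 0. MEF-1 line 2 had 22.73% at 89309905 and MEF-1 line 5 had 38.55% at 89310199. In Trp53, MEF-2 line 2 had 3.448% at 69580085. In Rb1, MEF-1 line 4 had 71.43% at 73234312 and 29.41% at 73326610, MEF-1 line 2 had 97.22% at 73324345, and MEF-2 line 5 had 91.84% at 73209886. In Tert, MEF-2 line 6 had 17.24% at 73646508 and MEF-2 line 7 had 97.3% at 73626836.

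In exon 2 of Cdkn2a the clonal lines moved apart from their parental lines in opposite directions, by -7.93 percentage points on average in MEF-1 and 8.916 in MEF-2, with all 7 lines of each family on one side of the parental line. The difference between the families in this shift was not tested, since each parental line was sequenced once.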

How the results depend on the processing

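Calls between the families mostly kept their direction and side of the threshold. Leaving out each line in turn gave 73 to 85 called CpGs, 3 to 4 windows, 3 to 4 gene regions and 1 locus by coverage. For the CpGs named by rule, 438 of 448 such refits and 72 of 81 refits under other settings kept the call, among them 29 of 32 with the replicate block. A minimum of 20 reads left 180 CpGs and 4 windows of these genes to test, and 49 and 2 passed. The CpGs passed at 27.2%, above the 23.2% of all CpGs in that setting, whereas as reported they passed at 17.4%, below 20.2%. Without MEF-1 lines 1, 4 and 5, 59 CpGs passed (12.3%, beside 14.1% of all). These lines differed from their parental line at 1.34 to 1.54% of all CpGs by Fisher's exact test, against 4.54 to 5.53% in MEF-1 lines 2, 3, 6 and 7. Chromosome 18 stood at 0.512 to 0.537 in them and at 0.917 to 0.995 in the others. The 7 MEF-1 lines were thus not equally far from their parental line. The call at Rb1 CpG 73324345 was lost in 8 of 17 settings (adjusted p up to 0.1438). The small difference at the p19 window changed sign without some lines (adjusted p = 0.6465 to 0.9998 over the lines left out, 0.8525, 0.9227 and 0.7506 where it turned) and with limma on mean levels (0.9814). The same held for the Cdkn2b window (0.5182 to 0.9803, 0.9803 and 0.9117 where it turned) and with 20 reads (0.4892). None of these passed, and the cause was not tested. The Tert gene region passed with 20 reads (0.04739).

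With CpGs at 5 or more reads per library the window levels were 7.843 and 4.594% at p19 (MEF-1 and MEF-2), 6.133 and 5.355% at Mdm2, 3.004 and 4.028% at Rb1, and 59.85 and 66.93% at the upstream Cdkn1a start. In the same setting Cdkn2b was at 3.145% in MEF-2, Tert at 30.11 and 38.85%, and Trp53 at 5.944 and 1.622%. With the 1000 bp before a start alone, p16 was at 5.787% in MEF-1, Cdkn2b at 8.143 and 13.55%, and Tert at 39.42 and 55.3%. Pooling reads gave 34.43 and 51.16% at Tert. These settings use other CpGs or weights, and at 5 or more reads per library the CpGs can also differ between libraries. Relative coverage of Trp53 in MEF-1, 0.6932 as reported, was 0.5142 against the MEF-2 median, 0.6286 with CpGs at 10 reads in every library, and 0.504 against the median autosome. In MEF-2 it was 0.9957 and 1.002 against the MEF-2 median, by chromosome and by autosome. Mdm2 in MEF-1 was at 0.8869 against the autosome. The autosome divisor and the block sizes for chromosome 11 were chosen after seeing the data, and blocks of 20 CpGs gave a stretch of 462.3 kb.

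Line numbers did not pair the families. Deviations of same-numbered lines correlated at -0.00432 to 0.00353, and no line correlated best with its own number. With the replicate block 80 CpGs, 4 windows, 3 gene regions and 1 locus by coverage passed. Depth limits single CpGs most at Trp53 in MEF-1, where the locus had 10.7 to 15.4 reads per CpG.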
